A study of Mus musculus with 8 samples.

Results

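SWI/SNF and Polycomb complexes are the chromatin machines described here, through 49 mouse genes that code for their subunits. The genes were chosen by name, 25 for SWI/SNF, 10 for Polycomb repressive complex 2 (PRC2) and 14 for Polycomb repressive complex 1 (PRC1), and a gene counted as measured where a probe set carried its symbol alone in the platform annotation. That held for 45 of the 49 genes, out of 12393 genes on the array; Smarcc2, Arid1b, Brd9 and Phc3 were not analysed here. Transcript levels come from 8 Affymetrix Mouse 430A 2.0 arrays, 1 per sample. The 4 CD44hi and 4 CD44lo arrays held RNA of subpopulations purified from stable T cell lymphoma lines, and the lines of both groups lacked Snf5, the protein of the gene Smarcb1. The labels give no allele, Cre driver, number of lines, animal, age or treatment, and do not say that replicates came from separate cultures. P-values thus rest on the spread among 4 arrays a group, which may be technical, and so few arrays limit the precision. In such bulk RNA fewer cells of a type and less RNA per cell cannot be told apart.

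SWI/SNF complexes use the energy of ATP to slide or eject nucleosomes and open DNA. Each holds an ATPase (Smarca4 or Smarca2), core subunits, and further subunits that set apart a BAF, a PBAF and a non-canonical form. Smarcb1 is a core subunit of the BAF and PBAF forms. PRC2 places the repressive methyl mark on lysine 27 of histone H3 through Ezh2 or Ezh1, and PRC1 binds that mark through CBX proteins and ubiquitinates histone H2A. SWI/SNF opposes Polycomb repression, and loss of Snf5 is known to leave Polycomb activity unchecked in tumours of children and in mouse T cell lymphoma.

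Of the 45 measured genes 2 were higher and 1 was lower in CD44hi than in CD44lo cells (limma, Benjamini-Hochberg adjusted p under 0.05 over all genes). That is 6.67% of them, beside 3.81% of all 12393 genes (2.03% higher and 1.78% lower); nothing particular to these complexes is read from so small a count. All 3 are Polycomb genes: Pcgf2 and Cbx8 of PRC1 were 1.48-fold and 1.39-fold higher in CD44hi, and Jarid2 of PRC2 was 1.54-fold lower. None of the 22 measured SWI/SNF genes passed the test without a replicate block. In the median gene of the set the log2 difference, CD44hi minus CD44lo, was 0.092 in size, beside 0.097 over all genes, and 34 of the 45 differed by less than 0.2. The groups did not overlap in 5 genes (Pcgf2, Cbx8, Rbbp7, Jarid2 and Bmi1), or 11.1%, beside 10.3% of all genes.

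**Figure D1:**
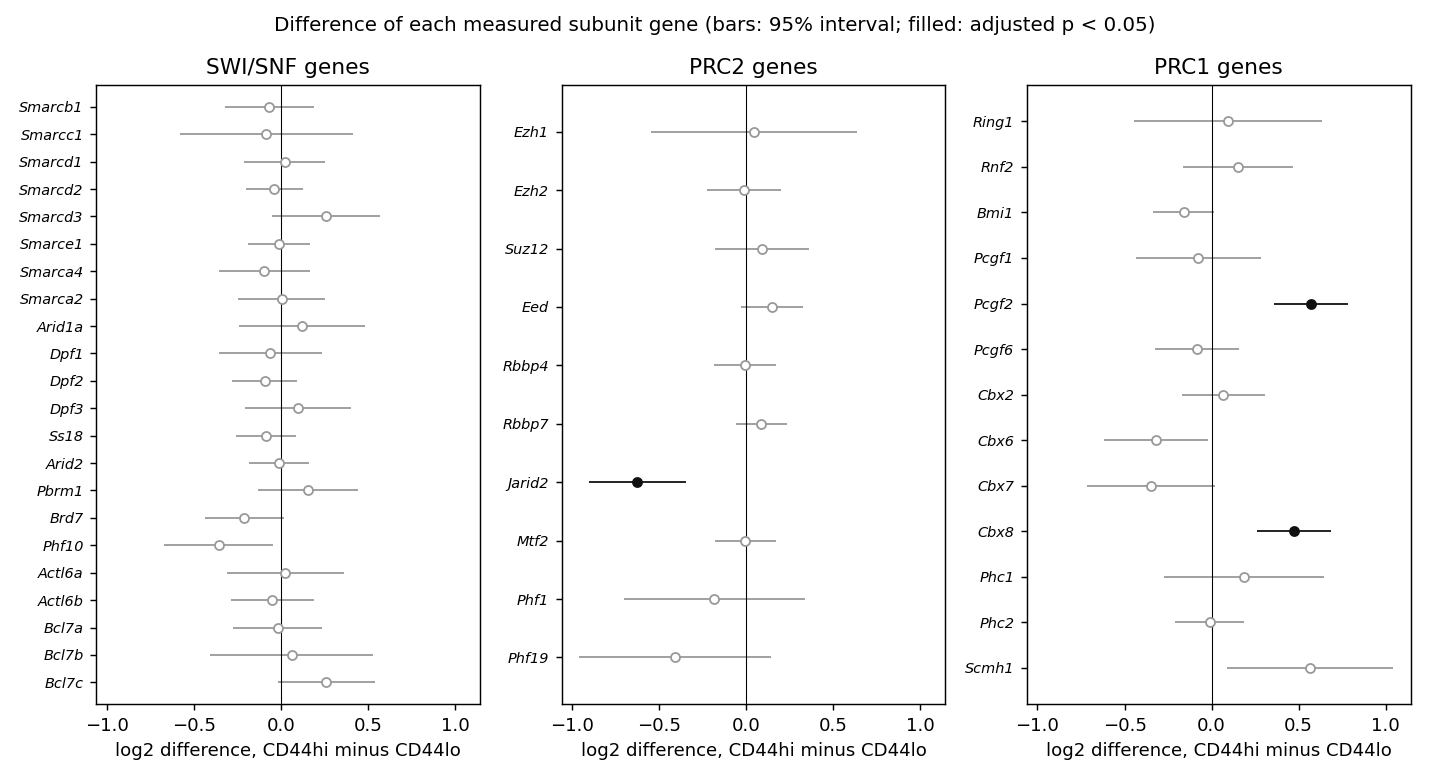
Log2 difference in expression, CD44hi minus CD44lo, of the 45 measured subunit genes, with 95% intervals from limma (4 arrays a group). Filled points are the 3 genes with an adjusted p under 0.05, Pcgf2 and Cbx8 to the right of 0 and Jarid2 to the left; most others lie within 0.2 of 0.

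Libraries were alike in overall signal, with array medians of 320.3 to 339 on the linear scale. Log2 intensities of Cd44, the sorting marker, averaged 11.44 ± 0.28 on CD44hi arrays, against 5.55 ± 0.45 on CD44lo arrays (SD, n = 4 each). T cell receptor and coreceptor transcripts (Cd3d, Cd3e, Cd3g, Cd247, Cd8a, Cd8b1) were above the control probe sets of Bacillus genes on all 8 arrays, while Thy1, Cd5 and Cd4 were not above them on any. None of the 10 measured T cell, 9 B cell, 10 myeloid and dendritic, 10 stromal or 4 erythroid markers passed the test, with or without the replicate block. Of the B cell markers 5 were below the highest control on every array, and the summed linear intensity of all 9 was 326.1 to 430.7 in CD44hi and 324.5 to 346.8 in CD44lo. Ms4a1 exceeded the highest control on 1 array, with a log2 difference of 1.31 (limma adjusted p = 0.0961), and Cr2 on all 8. The erythroid marker Klf1, above the controls on all 8, differed by 0.59 (limma adjusted p = 0.190). Groups did not overlap for Ms4a1 and Klf1, nor for Cd3d and Cd3g, at -0.04 and -0.05. Gapdh probe sets at the 3' end exceeded those at the 5' end, a measure of RNA degradation, by a log2 ratio of 0.816 ± 0.052 on CD44hi arrays, against 0.696 ± 0.036 on CD44lo arrays (SD over 4 arrays a group). By an exact permutation test, two-sided, p was 0.0286, the smallest this design allows. The like ratio of Actb was 0.626 ± 0.152 on CD44hi arrays, against 0.498 ± 0.106 on CD44lo arrays (SD, n = 4 each). For Actb an exact permutation test, two-sided, gave p = 0.229. The Actb ratio was higher at replicate numbers 2 and 4 (0.558 to 0.795) than at 1 and 3 (0.380 to 0.532). The Gapdh ratio overlapped between these number sets. The part of RNA degradation in the differences below was not tested.

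Smarcb1, the gene that these lines lack as protein, was at 6.88, 6.65, 6.79 and 6.81 (log2 intensity) on CD44hi arrays 1 to 4, against 6.62, 6.88, 6.78 and 7.12 on CD44lo arrays 1 to 4. The groups overlapped, and the log2 difference was -0.07 (SE 0.11; limma adjusted p = 0.910). Its other probe set was at 5.35 ± 0.17 on CD44hi arrays, against 5.37 ± 0.02 on CD44lo arrays (SD, n = 4 each), below the highest Bacillus control on all 8 arrays. Where the deleted part of the gene lies relative to these probe sets is not known here, so they do not check the Snf5 loss.

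The other measured core genes of SWI/SNF were above the controls on all arrays. Smarcc1, a scaffold subunit, was at 11.64 ± 0.45 in CD44hi cells, against 11.72 ± 0.26 in CD44lo cells (log2 intensity, SD, n = 4 each), and Smarce1, which binds DNA through an HMG box, was at 12.74 ± 0.06 and 12.75 ± 0.11. The alternative core subunits Smarcd1, Smarcd2 and Smarcd3 had log2 differences of 0.02, -0.04 and 0.26, none past the test. The ATPase genes were both above the controls on all arrays in these Snf5-deficient cells. Smarca4, which codes for Brg1, was at 10.96 ± 0.22 in CD44hi and 11.06 ± 0.09 in CD44lo, with a log2 difference of -0.10 and a 95% interval of -0.36 to 0.16. Smarca2, which codes for Brm, was at 10.76 ± 0.21 and 10.76 ± 0.07, with an interval of -0.25 to 0.25. Probe sets differ in how strongly they bind, so the level of 1 gene is not set against that of another, paralogs included.

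None of the subunits that define the BAF and PBAF forms passed the test without the block, and Phf10 passed with it. Among BAF genes, Arid1a, which codes for a large DNA-binding subunit often mutated in cancer, had a log2 difference of 0.12, Dpf2 of -0.09 and Ss18 of -0.09. Among PBAF genes, Arid2 differed by -0.01, Pbrm1, a multi-bromodomain subunit, by 0.15 and Brd7, a bromodomain subunit, by -0.21. Phf10, a PBAF subunit with plant homeodomain fingers, was at 10.75, 10.54, 10.96 and 10.60 on CD44hi arrays 1 to 4, against 11.26, 10.85, 11.30 and 10.87 on CD44lo arrays 1 to 4. It was lower in CD44hi at each replicate number, although the groups overlapped because arrays numbered 2 and 4 were lower than those numbered 1 and 3 in both groups. Its log2 difference of -0.36 (SE 0.14) did not pass without the block (limma adjusted p = 0.290) and passed with the replicate number as a block (limma adjusted p = 0.0368), where 6.19% of all genes were called, 3.08% higher and 3.11% lower.

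A few SWI/SNF genes lay near or below the highest control. Actl6b and Bcl7a lay below the highest Bacillus control on all 8 arrays. Actl6b was at 4.45 in CD44hi and 4.50 in CD44lo, and Bcl7a at 4.13 in CD44hi and 4.15 in CD44lo. Each has 1 probe set, which may bind weakly, so their transcript level was not measured. Actl6b is the neuronal counterpart of Actl6a, which was above the controls throughout at 11.54 in CD44hi and 11.52 in CD44lo. Dpf1, another neuronal subunit, was above them on 7 of 8 arrays, at 6.01 in CD44hi and 6.07 in CD44lo, and its relative Dpf3 had a log2 difference of 0.10. Bcl7b was at 9.87 and 9.81. Bcl7c was at 10.07 and 9.81, with a log2 difference of 0.26 that did not pass (limma adjusted p = 0.447). Over the 22 SWI/SNF genes the 95% intervals of the log2 difference reached no lower than -0.672, for Phf10, and no higher than 0.567, for Smarcd3.

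In PRC2 none of the core genes passed the test. Ezh2, the main H3 lysine 27 methyltransferase of dividing cells, was at 13.65, 13.99, 13.73 and 13.92 on CD44hi arrays 1 to 4, against 13.76, 13.88, 13.78 and 13.91 on CD44lo arrays 1 to 4. Its log2 difference was -0.01, with a 95% interval of -0.22 to 0.20. Its paralog Ezh1 had a difference of 0.04 with a wider interval, -0.55 to 0.63, because its arrays spread more within each group (SD 0.55 in CD44hi and 0.28 in CD44lo). Suz12, the scaffold of the complex, differed by 0.09 and Eed, which reads the methyl mark, by 0.15. The histone-binding subunits Rbbp4 and Rbbp7, which other complexes share, differed by -0.01 and 0.09. Other, dimmer Rbbp4 probe sets differed by 0.52 (SE 0.46) and 0.29 (SE 0.42), with groups that overlapped, and did not pass. Rbbp7 was the 1 core gene whose groups did not overlap, at 13.73 to 13.78 in CD44hi and 13.60 to 13.72 in CD44lo, and it did not pass the test (limma adjusted p = 0.719).

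Jarid2 was the PRC2 gene that changed. It codes for a DNA-binding cofactor that brings PRC2 to its targets and lacks demethylase activity of its own. Jarid2 was at 9.59, 10.10, 9.76 and 10.03 on CD44hi arrays 1 to 4, against 10.63, 10.41, 10.54 and 10.41 on CD44lo arrays 1 to 4. Every CD44hi value lay below every CD44lo value. The log2 difference was -0.63 (SE 0.12; limma adjusted p = 0.0240, or 0.0460 with the replicate block). It was larger at numbers 1 and 3 (-1.04 and -0.78) than at numbers 2 and 4 (-0.31 and -0.37), and the interaction of group and number set did not pass (limma adjusted p = 0.0897, a fit chosen after the values were seen; 1.52% of all genes passed it). The other Jarid2 probe sets differed by -0.53, with groups that did not overlap, and by -0.24, with groups that did. Neither passed (limma adjusted p = 0.155 and 0.622 over all probe sets). The call was lost without CD44hi replicate 3 or without any 1 of the 4 CD44lo replicates (limma adjusted p = 0.0581 to 0.0792), at log2 differences of -0.58 to -0.66.

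The other PRC2 cofactors did not pass. Mtf2, a Polycomb-like protein that recruits PRC2 to unmethylated CpG DNA, was level at 11.67 in both groups (95% interval of the log2 difference -0.18 to 0.17). Its relative Phf1 differed by -0.18. Phf19, the third Polycomb-like gene, was at 9.22, 8.17, 9.38 and 8.62 on CD44hi arrays 1 to 4, against 9.32, 9.14, 9.43 and 9.15 on CD44lo arrays 1 to 4. CD44hi arrays 2 and 4 stood below the rest, and the log2 difference of -0.41 (SE 0.24) did not pass (limma adjusted p = 0.595).

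**Figure D2:**
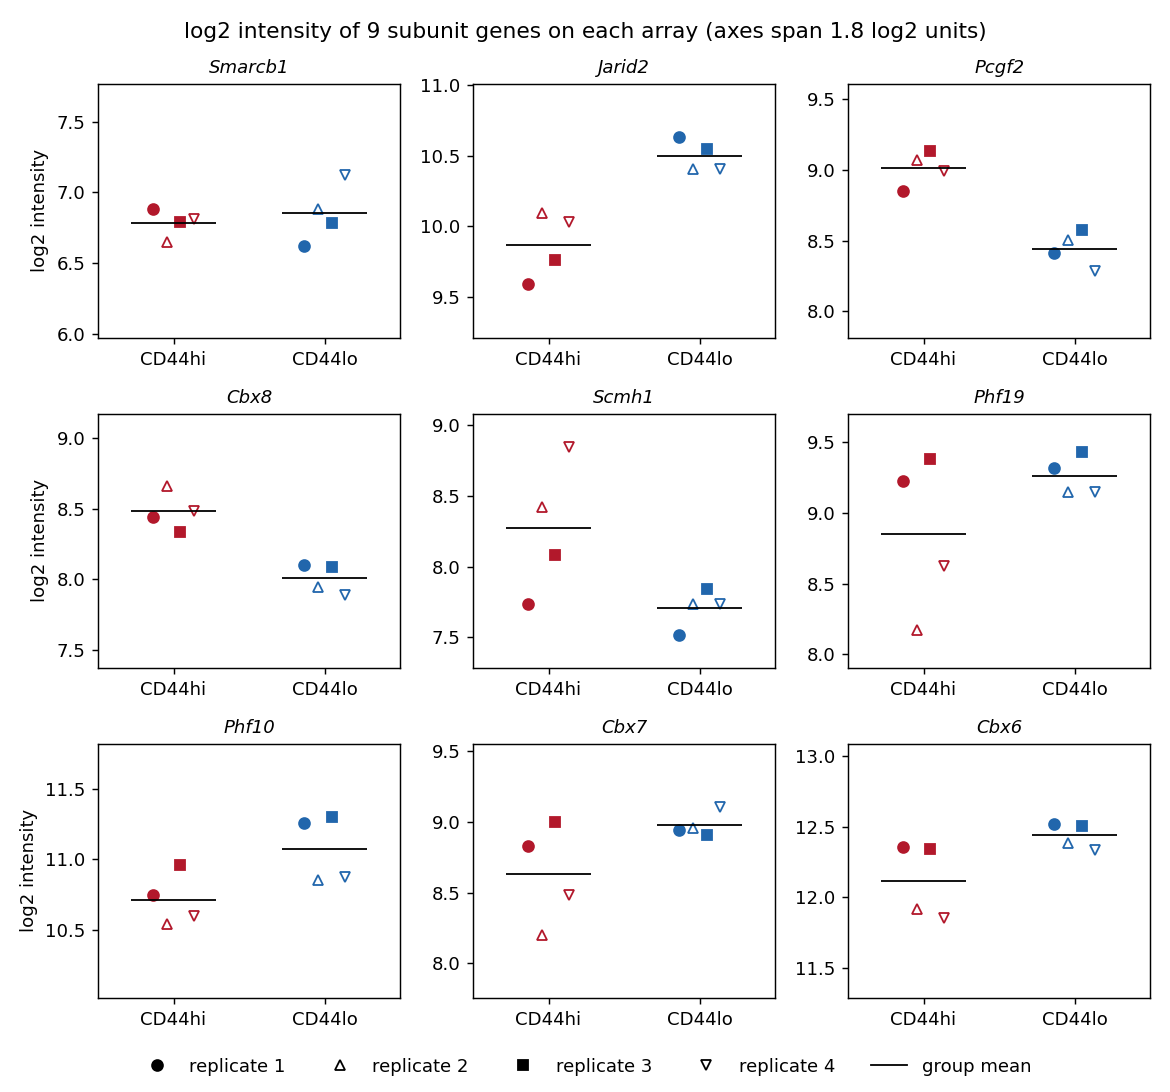
Log2 intensity of 9 subunit genes on each array, CD44hi left and CD44lo right, with the group mean as a line and a marker for each replicate number. The groups stand apart for Jarid2, Pcgf2 and Cbx8 and overlap for the other 6 genes.

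In PRC1 the ubiquitin ligase genes Ring1 and Rnf2 had log2 differences of 0.10 and 0.15, and neither passed. Pcgf2, also called Mel18, a RING-finger partner of the ligase, was at 8.85, 9.07, 9.14 and 8.99 on CD44hi arrays 1 to 4, against 8.41, 8.50, 8.57 and 8.28 on CD44lo arrays 1 to 4. All CD44hi values were above all CD44lo values. The log2 difference was 0.57 (SE 0.09; limma adjusted p = 0.00997), and it was of like size at each replicate number, between 0.44 and 0.71. The other Pcgf2 probe set differed by 0.35, also with groups that did not overlap, but did not pass (limma adjusted p = 0.127 over all probe sets). The call of the brighter probe set held without any single array (limma adjusted p = 0.0112 to 0.0392). It was lost when the odd numbers were fitted by themselves (0.0919), likewise the even numbers (0.0527), and when arrays were averaged by pair of numbers (0.290), at log2 differences of 0.50, 0.64 and 0.57.

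The paralogs that can take the place of Pcgf2 in PRC1 did not pass. Bmi1, a self-renewal factor of stem cells and a repressor of the Cdkn2a locus, was at 12.61, 12.43, 12.56 and 12.37 on CD44hi arrays 1 to 4, against 12.62, 12.64, 12.69 and 12.67 on CD44lo arrays 1 to 4. Each CD44hi value lay below each CD44lo value, by little, and the log2 difference of -0.16 (SE 0.08) missed the threshold (limma adjusted p = 0.458). The second Bmi1 probe set differed by -0.24, and its groups overlapped. Pcgf1 and Pcgf6, partners in variant PRC1 forms, both had log2 differences of -0.08.

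The CBX genes, which give canonical PRC1 its reader of the methyl mark, did not move as 1 group. Cbx8 was at 8.44, 8.66, 8.33 and 8.49 on CD44hi arrays 1 to 4, against 8.10, 7.95, 8.09 and 7.89 on CD44lo arrays 1 to 4. The groups did not overlap, and the log2 difference was 0.47 (SE 0.09; limma adjusted p = 0.0244, or 0.0400 with the replicate block). A second, dimmer Cbx8 probe set at 5.96 in CD44hi and 5.90 in CD44lo differed by 0.05. The call was lost without CD44hi replicate 1, 2 or 4 or CD44lo replicate 2, 3 or 4 (limma adjusted p = 0.0515 to 0.0875), at log2 differences of 0.41 to 0.50, and with an intensity trend and robust variance (0.0550).

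Cbx7, a repressor of senescence, pointed the other way. It was at 8.83, 8.20, 8.999 and 8.48 on CD44hi arrays 1 to 4, against 8.94, 8.96, 8.90 and 9.11 on CD44lo arrays 1 to 4. The log2 difference of -0.35 (SE 0.16; limma adjusted p = 0.434) did not pass; numbers 2 and 4 gave -0.75 and -0.62, and numbers 1 and 3 gave -0.11 and 0.09. The other Cbx7 probe set differed by -0.39, with groups that did not overlap, and was lower at number 3 too, at 8.80 in CD44hi and 8.96 in CD44lo; it did not pass either (limma adjusted p = 0.262 over all probe sets). Cbx6 was at 12.36, 11.91, 12.34 and 11.86 on CD44hi arrays 1 to 4, against 12.52, 12.38, 12.51 and 12.34 on CD44lo arrays 1 to 4. It was lower in CD44hi at each replicate number, with a log2 difference of -0.32 (SE 0.13) that did not pass (limma adjusted p = 0.343, or 0.0991 with the replicate block). Cbx2 was at 7.23 and 7.16 and differed by 0.07.

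**Figure D3:**
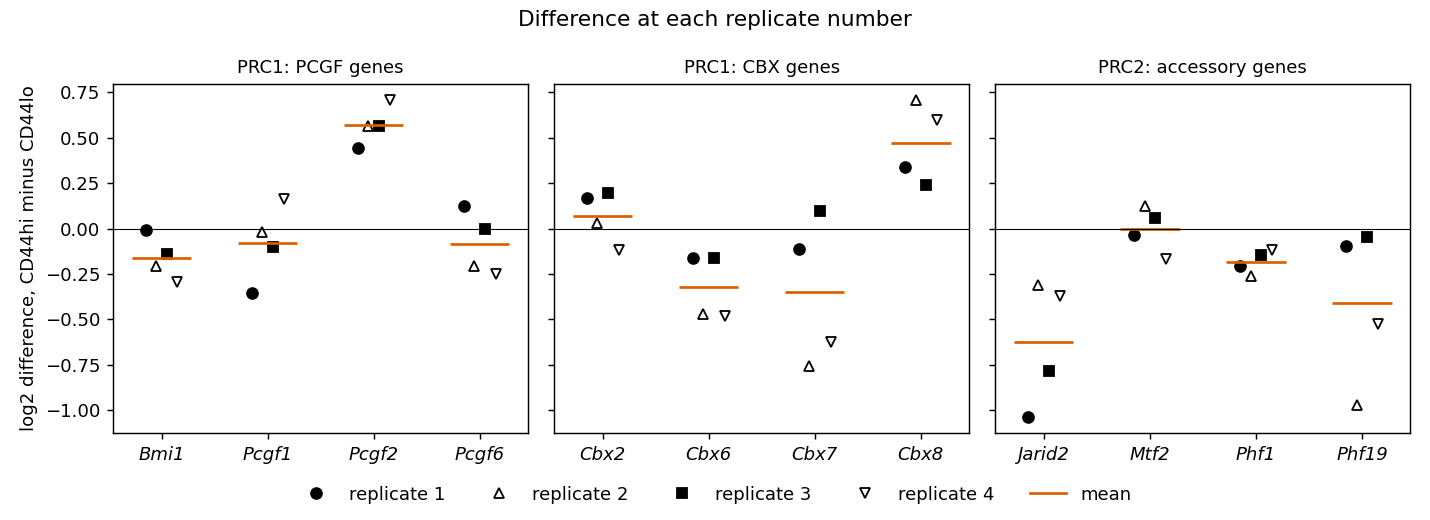
Log2 difference, CD44hi minus CD44lo, at each of the 4 replicate numbers for the PCGF, CBX and PRC2 accessory genes, with the mean as a line. Pcgf2 and Cbx8 are above 0 at all 4 numbers, and Jarid2, Cbx6, Phf1, Phf19 and Bmi1 are below 0, Bmi1 only just at number 1. Cbx7 and Phf19 are near 0 at numbers 1 and 3 and lower at 2 and 4.

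Among the Polyhomeotic genes, whose SAM domains let PRC1 units join, Phc1 differed by 0.19 and Phc2 by -0.01. Scmh1, a Sex comb on midleg homologue with the same kind of domain, was at 7.74, 8.42, 8.08 and 8.85 on CD44hi arrays 1 to 4, against 7.52, 7.73, 7.84 and 7.74 on CD44lo arrays 1 to 4. CD44hi array 1 lay within the CD44lo range and the other CD44hi arrays above it. Its log2 difference of 0.56 (SE 0.21) did not pass (limma adjusted p = 0.267), and without CD44hi replicate 4 it was 0.37.

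The promoters of the 3 changed genes are shown because CpG-dense start sites are the usual landing ground of Polycomb complexes, and the 3 genes differ in CpG count. Polycomb binding at these genes was not measured. Each sequence is the 250 bases before the annotated start in RefSeq (build GRCm38.p6), on the strand of the gene, with every CpG in capitals.
Jarid2, chr13:44730524-44730773, + strand: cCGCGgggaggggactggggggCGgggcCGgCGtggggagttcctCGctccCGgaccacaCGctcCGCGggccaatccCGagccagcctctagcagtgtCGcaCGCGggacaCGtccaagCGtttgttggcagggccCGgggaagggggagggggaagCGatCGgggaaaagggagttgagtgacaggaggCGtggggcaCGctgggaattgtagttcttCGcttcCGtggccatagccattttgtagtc
Cbx8, chr11:119040914-119041163, - strand: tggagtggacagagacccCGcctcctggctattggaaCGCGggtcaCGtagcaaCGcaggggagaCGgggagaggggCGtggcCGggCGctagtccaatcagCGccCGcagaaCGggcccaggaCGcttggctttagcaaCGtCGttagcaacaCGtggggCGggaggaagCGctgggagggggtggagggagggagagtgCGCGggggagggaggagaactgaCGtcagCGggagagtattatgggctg
Pcgf2, chr11:97699649-97699898, - strand: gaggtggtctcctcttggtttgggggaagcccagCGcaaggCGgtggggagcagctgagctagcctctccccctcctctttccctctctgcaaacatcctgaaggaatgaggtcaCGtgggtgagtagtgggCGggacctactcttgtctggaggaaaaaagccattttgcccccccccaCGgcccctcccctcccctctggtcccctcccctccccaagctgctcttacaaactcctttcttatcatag
The Jarid2 window holds 23 CpGs and the Cbx8 window 22, counts that 13.3% and 14.8% of the 32841 RefSeq windows of this length reach. The Pcgf2 window holds 5, a count that 55.6% reach; the median is 6 over all windows and 22.5 over the 50 windows of 43 subunit genes in the table. A second annotated start of Jarid2 has 22 CpGs in its window. None of these 4 windows holds, on either strand, the E2F motif TTTCCCGC or TTTGGCGC, the GATA motif AGATAA or the ETS motif CCGGAAG. Over all windows these motifs occur in 1.3%, 9.99% and 6.91%. Of the 50 subunit windows 5 hold the E2F motif, those of Arid1a, Brd7, Phf19, Smarcd1 and Suz12, none of which was called. The ETS motif is in 5 windows, of Brd9, Phc2, Smarca2 and Smarcc1, the GATA motif in 1, of Scmh1, and an EBF motif, found in 0.78% of all windows, in 1, of Eed. Such a match is a description of letters, and CpG content was not matched.

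Replicate numbers set many of these genes apart in both groups. For 12 of the 45 genes the number sets did not overlap, 8 higher and 4 lower at numbers 2 and 4, or 26.7% beside 25.4% of all genes. Ezh1 was at 9.97, 10.74, 10.13 and 11.17 on CD44hi arrays 1 to 4, against 10.32, 10.71, 10.14 and 10.68 on CD44lo arrays 1 to 4, with numbers 2 and 4 the higher in each group. Phf1, Ring1, Phc1 and Bcl7b were likewise higher at numbers 2 and 4, by 0.66, 0.63, 0.56 and 0.54 on the log2 scale. Smarcc1 and Phf19 had differences of -0.54 and -0.57. The labels do not say what the numbers stand for, the pattern was seen in the values, and no test is given. The Actb ratio of 3' to 5' signal also set the numbers apart, and its part in this pattern was not tested. Pcgf2, Cbx8 and Jarid2 differed by -0.03, 0.003 and 0.10 between the number sets.

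**Figure D4:**
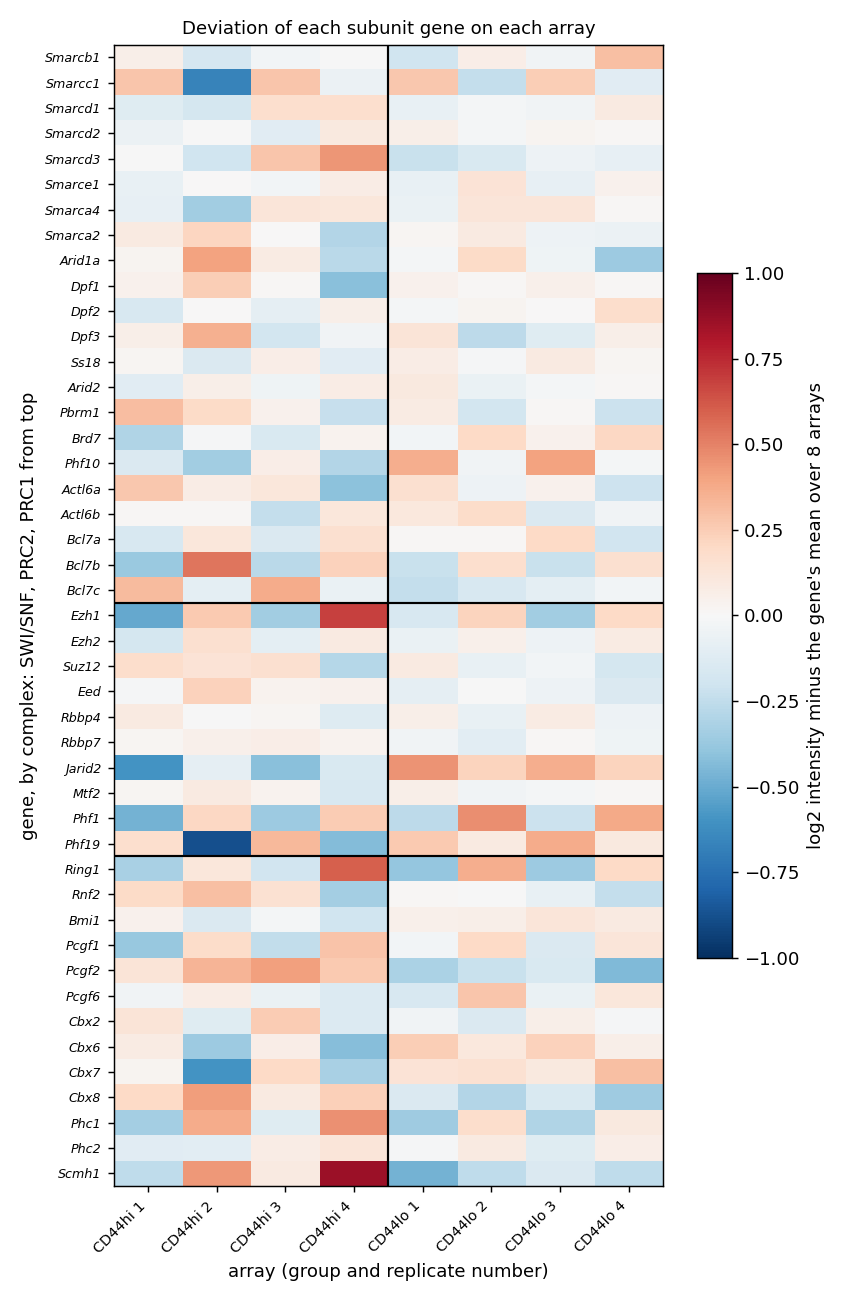
Log2 intensity of each of the 45 subunit genes on each array (4 CD44hi left, 4 CD44lo right), as the deviation from the gene's mean over 8 arrays. Ezh1, Phf1, Ring1, Phc1 and Bcl7b alternate between odd and even replicate numbers in both groups, while Jarid2, Pcgf2 and Cbx8 change colour at the line between the groups.

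Other genes of these pathways were described from lists chosen by function, with earlier results of these data known. Of 14 measured further Polycomb genes 2 were higher in CD44hi and 0 lower, or 14.3%, beside 2.03% higher and 1.78% lower over all genes. Nothing particular to the list is read from so small a count. Scml2, a Sex comb on midleg-like protein that binds PRC1 in germ cells, was at 8.03, 7.98, 8.07 and 7.81 on CD44hi arrays 1 to 4, against 5.55, 5.76, 6.21 and 5.50 on CD44lo arrays 1 to 4, and CD44lo arrays 1 and 4 did not exceed the highest control. The fitted log2 difference was 2.22 (SE 0.15; limma adjusted p = 5.92e-05), and since CD44lo values lie at or near background it is no exact size. Sfmbt2, a Polycomb protein with malignant brain tumour repeats, was at 7.65, 8.22, 7.73 and 8.67 on CD44hi arrays 1 to 4, against 5.99, 6.001, 6.48 and 6.39 on CD44lo arrays 1 to 4. Its log2 difference was 1.85 (SE 0.23; limma adjusted p = 0.00204). The CD44lo values of Sfmbt2 lay above but near the highest control (5.80, 5.65, 5.86 and 5.53 on CD44lo arrays 1 to 4). Its difference is thus no exact size either. Both proteins have SAM domains like Scmh1. The paralogs Sfmbt1 and Scml4 differed by 0.54 and -0.27 without passing (limma adjusted p = 0.176 and 0.487).

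None of the 14 measured Trithorax and H3 lysine 27 demethylase genes passed, with Kmt2e at a log2 difference of 0.15, nor did any of 27 genes of other chromatin remodellers, with Smarca5 at 0.15 and Atrx at -0.18. None of 5 measured further SWI/SNF associated genes passed; Bcl11b, a T cell identity factor found in BAF complexes, had a difference of -0.09. Of 15 measured Ink4, Cip and Rb genes, among them well known Polycomb targets, 0 were higher and 2 lower in CD44hi, or 13.3%, beside 2.03% higher and 1.78% lower over all genes. From so small a count nothing particular to this list is read. Cdkn1a, which codes for the cyclin-dependent kinase inhibitor p21, was at 8.98, 8.07, 8.87 and 8.52 on CD44hi arrays 1 to 4, against 9.47, 9.64, 9.39 and 9.68 on CD44lo arrays 1 to 4 (log2 difference -0.93, SE 0.19; limma adjusted p = 0.0263). Rb1, which codes for the retinoblastoma protein, was at 10.48, 10.61, 10.58 and 10.31 on CD44hi arrays 1 to 4, against 10.86, 10.87, 11.09 and 10.91 on CD44lo arrays 1 to 4 (log2 difference -0.44, SE 0.09; limma adjusted p = 0.0369). The groups overlapped for neither gene. Cdkn1a lost the call without CD44hi replicate 4 or any 1 CD44lo array (limma adjusted p = 0.0578 to 0.0929), and Rb1 without any 1 array but CD44hi replicate 2 (0.0609 to 0.113). Cdkn2a, which codes for p16Ink4a and p19Arf and is the classic target of PRC1, was at 9.94 ± 0.54 in CD44hi cells, against 10.31 ± 0.38 in CD44lo cells (SD, n = 4 each), and did not pass (limma adjusted p = 0.725, or 0.0597 with the replicate block). None of 16 proliferation genes passed, with a median log2 difference of -0.06. All of them but Mcm6 were lower at replicate numbers 2 and 4 than at 1 and 3, without overlap. These log2 differences ran from -1.55 for Plk1 to -0.19 for Pcna, beside 0.04 for Mcm6, and were not tested. Median differences of the further Polycomb, Trithorax, remodeller and Ink4, Cip and Rb lists were 0.06, -0.01, 0.01 and 0.002, beside -5.86e-05 over all genes.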

How the data were processed

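RNA of 8 samples was hybridised to 1-colour arrays, and group and replicate number were read from each title. Deposited values are intensities, 1 per probe set, computed by the authors with Robust Multichip Average, per the labels' protocols; its version is not given in the sources used here. They lay between 7.61 and 36127.7, so they were read as linear and log2 was taken with no pseudocount. This summary shrinks differences near background.

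Of 22690 probe sets 20380 carry 1 gene symbol, 691 several and 1555 others none in the platform annotation, and 64 are controls; 0 of those with several symbols name a listed gene. Where a gene had several probe sets, the brightest on average stood for it, which left 12393 genes. Background was the highest of 27 Bacillus control probe sets on each array.

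R 4.3.3 and limma 3.58.1 (lmFit, then eBayes) compared the groups without a covariate, and p-values were adjusted by Benjamini-Hochberg across the 12393 genes. The fit was tested on simulated data with independent noise on each array. That noise lacks the odd and even pattern of the real arrays, so the test does not give the error rate here. The listed genes, further lists and tests were chosen with earlier results of these data known. Values per array are given for Smarcb1, for listed genes called with or without the replicate block and for the 8 largest differences, and for called genes of the further lists. The values per array of Bmi1, Ezh2 and Ezh1 and the description of Cdkn2a are outside the rule, having been picked once values were known.

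Replicate numbers are shared by the groups. Deviations of same-numbered arrays correlated across genes at 0.574, 0.404, 0.533 and 0.531, all over 0.1, and the replicate number was therefore used as a block in an alternative fit. Arrays of different numbers within the odd or the even set correlated about as well, at 0.521, 0.471, 0.458 and 0.372, and CD44hi array 4 with CD44lo array 2 better than the arrays numbered 2 with each other. The values thus separate odd from even numbers and do not by themselves show pairs, and no label gives pairs. Alternatives were other normalizations, probe set choices, filters, variance models, array weights, the block, number sets and leaving out each array.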

Additional observations from a re-analysis of the deposited data

Results flagged for a closer look

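In 1 of 90 groups of 4 values examined, 2 for each of the 45 subunit genes, 1 array lay far from the others, where chance flags about 1 in 20. For Suz12, the PRC2 scaffold, CD44hi replicate 4 was at a log2 intensity of 12.42 and the other CD44hi arrays at 12.85 to 12.89. Replicate 4 was also the lowest of the CD44lo arrays, at 12.54, with the others at 12.64 to 12.80. In some other Suz12 probe sets replicate 4 was likewise the lowest in both groups, and in the rest in CD44hi only. Without CD44hi replicate 4 the log2 difference of Suz12 was 0.20, against 0.09 with that array, and Suz12 passed the test in neither case.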

How the results depend on the processing

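Against 252 higher and 220 lower genes in CD44hi, genes with a mean above the median gave 102 and 113, array weights 403 and 418, the replicate block 382 and 385, numbers 1 and 3 alone 422 and 450, numbers 1 and 3 against 2 and 4 as a block 522 and 544, and arrays averaged by pair of numbers 19 and 4. With 1 array left out, 178 to 230 genes were higher and 127 to 226 lower in CD44hi, with 128, 142 and 127 lower genes without CD44lo replicate 2, 3 or 4. Against 2 higher subunit genes, 0 were called among genes with a mean above the median (where Pcgf2 and Cbx8 were not tested), 1 with the mean of all probe sets, 1 with trend and robust variance, 1 with numbers 1 and 3 alone (Bcl7c, with Pcgf2 and Cbx8 both lost) and 0 with averaged arrays; with numbers 2 and 4 alone the 2 were Cbx8 and Scmh1, with Pcgf2 lost; leaving out 1 array gave 1 to 2. Against 1 lower subunit gene, 0 were called with the mean of all probe sets, 2 with the replicate block (Jarid2 and Phf10), 0 with numbers 2 and 4 alone, 3 with the number sets as a block (Jarid2, Phf10 and Cbx6) and 0 with averaged arrays; leaving out 1 array gave 0 to 1. The cause was not tested, apart from fewer genes or arrays where these were left out.

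Of 61 values of Pcgf2, Cbx8 and Jarid2 under alternatives, 40 stayed past the threshold, 21 did not and 0 reversed. Jarid2 was at -0.46 with the mean of all probe sets (limma adjusted p = 0.0853), and Cbx8 at 0.26 (0.0883). Of 869 values of other subunit genes, 6 passed the threshold: Phf10 and Cbx6 as above, Bcl7c with array weights and with numbers 1 and 3 alone, and Scmh1 with numbers 2 and 4 alone. Another 95 of the 869 changed sign without passing. Scml2 passed in every alternative in which it was tested and Sfmbt2 in all but averaged arrays (limma adjusted p = 0.203). Cdkn1a lost the call without CD44hi replicate 4 or any 1 CD44lo array and with averaged arrays, and Rb1 in 14 of its alternatives, quantile normalization and median centring among them. The replicate block changed no other call of a named gene.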
